A study of Mus musculus with 11 samples.

Results

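The genes described here encode 10 proteins grouped under the name endothelial adherens junction proteins. The adherens junction is a contact that holds neighbouring cells of a vessel wall together. The members are the cadherins Cdh5 and Cdh2, the catenins Ctnnb1, Jup, Ctnna1 and Ctnnd1, the immunoglobulin-type adhesion proteins Pecam1, Esam and Jam3, and the phosphatase Ptprb. The name is that of the set, and not every member is confined to this junction. The members were found by symbol, and the set was chosen with earlier results of these data known. For each symbol the probe set with the highest mean over the 11 arrays was taken, which gave 10 genes of the 30790 genes tested. These 10 genes had 11 probe sets among 33793, since Cdh2 had 2. Rows next to the Cdh2 probe set taken hold genes of chromosome 4, while Cdh2 lies on chromosome 18, as described below. Whether this probe set measures Cdh2 was not tested.

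Arrays measured the RNA of vascular fragments, which are stretches of vessel prepared from the ipsilateral side of the brain after middle cerebral artery occlusion (MCAO). MCAO blocks a main artery of the forebrain as a model of stroke. All mice were adult male C57BL/6 mice with MCAO, and vessels without occlusion were not analysed here. The 4 groups were imatinib 24 h after MCAO (n = 3), phosphate-buffered saline (PBS) 24 h after MCAO (n = 3), imatinib 3 h after MCAO (n = 2) and PBS 3 h after MCAO (n = 3). Imatinib blocks several tyrosine kinases, among them ABL, KIT and those for platelet-derived growth factor. Mice studied at 3 h had received 3 treatments before MCAO and mice studied at 24 h a further one, 4 in all, so time and number of treatments cannot be told apart. Whether replicates came from separate animals is not stated in the labels, and the p-values therefore cover only the spread between the samples at hand, which may be technical.

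VE-cadherin, the product of Cdh5, binds its own kind on the next endothelial cell, and its tail is held inside the cell by catenins. Beta-catenin or plakoglobin couples the tail to alpha-catenin and through it to actin, p120-catenin keeps the cadherin at the membrane, and VE-PTP, the product of Ptprb, removes phosphate from the complex. In the brain these contacts lie beside the tight junctions of the blood-brain barrier, and their loosening is a known step in vascular leak.

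Values are deposited log2 array signals, in which a difference of 1 is a doubling. Probe sets bind with different efficiency, so signals of single genes are compared between arrays and not between genes. The levels and list averages that follow are only a rough view of which RNA was present. Every signal of the 10 genes, 6.18 at the lowest, lay above the median signal of all genes, 5.24. The 20 endothelial marker genes averaged 9.93 to 10.52 on the 11 arrays and the 11 neuronal markers 5.13 to 5.46, close to that median. RNA of other vessel-associated cells was also present, with averages of 9.74 to 10.22 for 10 microglia markers and 8.50 to 9.58 for 11 pericyte markers. The first principal component, with 50.2% of the variance, separated 24 h from 3 h. PBS 3 h replicate 1 stood apart on the second component (score 35.9, against -12.5 to 9.6 on the other 10 arrays), and values without it are given where they alter the call of a gene named here over time under PBS. In whole vessel fragments, fewer cells of a type and less RNA per cell cannot be told apart.

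**Figure D1:**
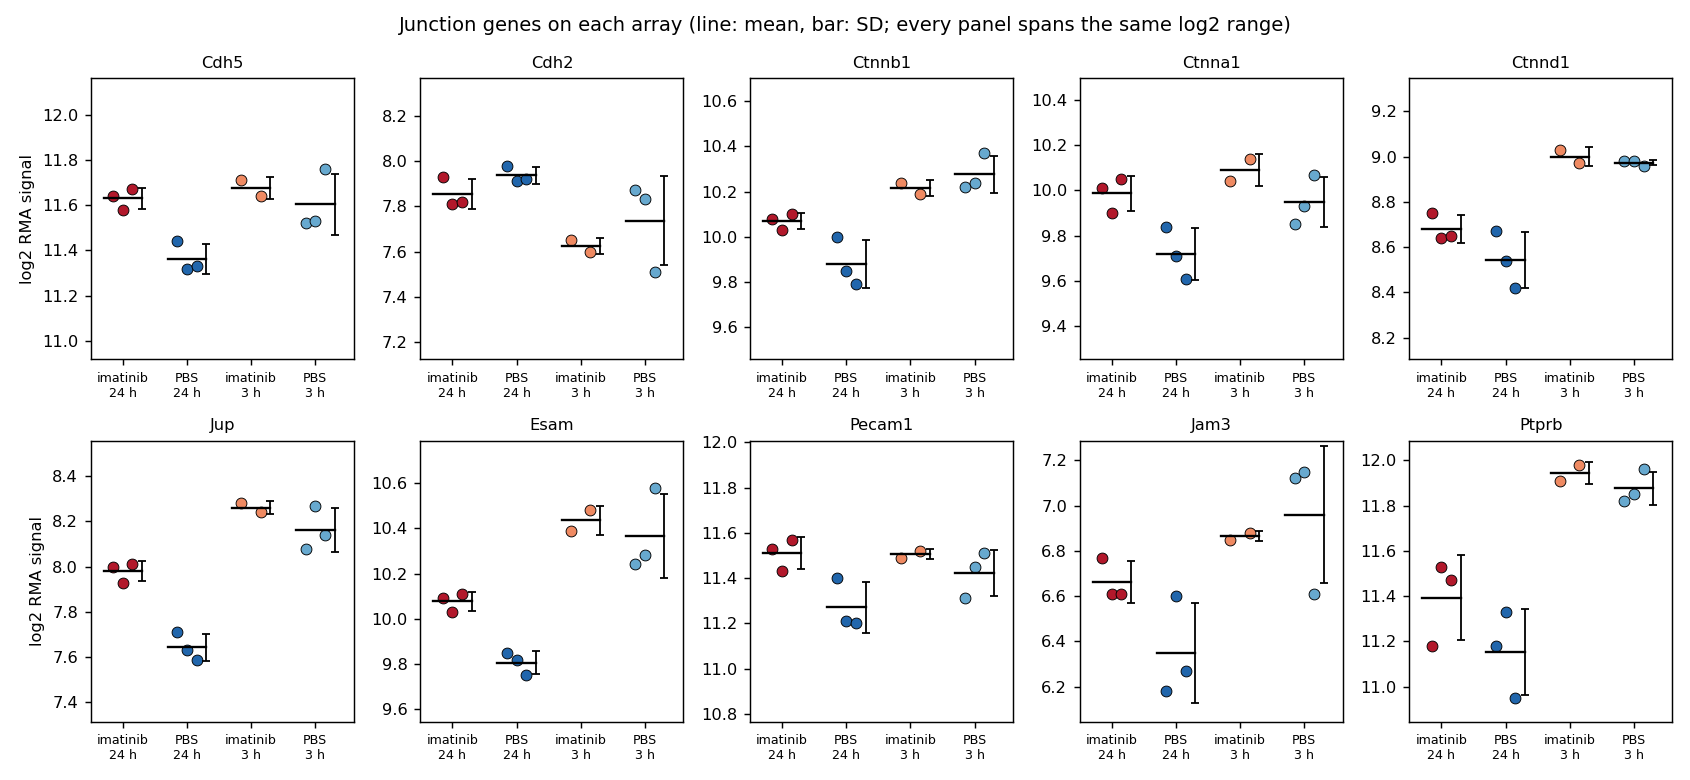
Log2 signal of the 10 junction genes on each of the 11 arrays, with 1 panel per gene and every panel spanning the same log2 range. Points are arrays, horizontal lines group means and vertical bars the SD. The 3 PBS 24 h arrays are the lowest of the 11 in Cdh5, Ctnnb1, Ctnna1, Jup, Esam and Jam3.

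The first comparison set PBS 24 h against PBS 3 h and asked how the junction genes differed with time in mice without the drug. In the PBS 24 h arrays the phosphatase gene Ptprb, the adhesion genes Jam3 and Esam and the catenin genes Jup, Ctnnd1 and Ctnnb1 fell, by 0.40 to 0.73 on the log2 scale. The VE-cadherin gene Cdh5, the alpha-catenin gene Ctnna1 and Pecam1 were lower by less and did not pass the test, and Cdh2 was the one member with a higher mean. Thus 6 of 10 members were called lower and none higher in limma at a Benjamini-Hochberg adjusted p of 0.05, where 7.28% of all genes were called lower and 9.34% higher. The median difference of the 10 members was -0.41, against -0.021 over all genes.

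Cdh5 encodes VE-cadherin, the adhesive receptor of the junction. Its signals were 11.44, 11.32 and 11.33 on the PBS 24 h arrays and 11.52, 11.53 and 11.76 on the PBS 3 h arrays. All 24 h arrays lay below all 3 h arrays. The log2 difference of -0.24 (95% interval -0.45 to -0.03) gave an adjusted p of 0.122 in limma. Cdh2 encodes N-cadherin, which in endothelium lies largely outside the cell-cell junction and contributes to contact with pericytes. Its signals of 7.98, 7.91 and 7.92 at 24 h under PBS lay above those of 7.87, 7.83 and 7.51 at 3 h. The difference was 0.20 (95% interval -0.04 to 0.43, adjusted p = 0.28 in limma), and PBS 3 h replicate 3 was the lowest of those arrays.

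Among the catenins, Jup encodes plakoglobin, a close relative of beta-catenin that takes the same place on the cadherin tail. Its signals were 7.71, 7.63 and 7.59 at 24 h and 8.08, 8.27 and 8.14 at 3 h under PBS, with no overlap. Jup fell by 0.52 ± 0.09 (SE) on the log2 scale, which is a level that dropped by 30.4% (fold 0.696, adjusted p = 0.00175 in limma). Ctnnd1 encodes p120-catenin, which holds VE-cadherin at the membrane by slowing its uptake. It gave 8.67, 8.54 and 8.42 at 24 h against 8.98, 8.98 and 8.96 at 3 h. The 3 h arrays were tightly grouped and all higher, and the log2 difference was -0.43 ± 0.09 (SE, adjusted p = 0.00696 in limma). Ctnnb1 encodes beta-catenin, both a link of the junction and a coactivator in Wnt signalling. At 24 h its signals were 10.00, 9.85 and 9.79, against 10.22, 10.24 and 10.37 at 3 h. They did not overlap, and Ctnnb1 fell by 0.40 ± 0.09 (SE, adjusted p = 0.0119 in limma). Without PBS 24 h replicate 3 the Ctnnb1 difference was -0.35 and no longer passed (adjusted p = 0.0532), nor did it in a fit of the PBS arrays alone (adjusted p = 0.0506). Ctnna1 encodes alpha-catenin, the actin-binding partner of both. It gave 9.84, 9.71 and 9.61 at 24 h and 9.85, 9.93 and 10.07 at 3 h, groups that touch but do not overlap, and its difference of -0.23 (95% interval -0.45 to -0.01) did not pass (adjusted p = 0.163 in limma).

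Upstream sequences were examined for 3 members, Ctnnb1, Ctnnd1 and Jup, the 3 catenin genes that fell together. None was at hand for Cdh5, Esam, Pecam1, Jam3 and Ptprb. Ctnna1, the catenin gene that was not called, and Cdh2 were left out of the printing and the counts. The windows therefore give no contrast between catenin genes that were called and the one that was not. RefSeq lists 2 starts each for Ctnnb1 and Ctnnd1 and 1 for Jup on GRCm38.p6. Shown are the 250 bases before the start listed first, written 5′ to 3′ on the gene's strand at chr9:120933150-120933399 (plus strand) for Ctnnb1, chr2:84658978-84659227 (minus strand) for Ctnnd1 and chr11:100397791-100398040 (minus strand) for Jup. Capitals mark GGAA or its reverse complement TTCC, the core of sites bound by ETS factors such as ERG, a regulator of Cdh5.
Ctnnb1: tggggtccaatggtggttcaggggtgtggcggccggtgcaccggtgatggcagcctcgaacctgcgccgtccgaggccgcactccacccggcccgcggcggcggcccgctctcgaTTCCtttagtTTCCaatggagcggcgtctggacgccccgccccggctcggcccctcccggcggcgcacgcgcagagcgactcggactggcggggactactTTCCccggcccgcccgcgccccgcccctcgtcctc
Ctnnd1: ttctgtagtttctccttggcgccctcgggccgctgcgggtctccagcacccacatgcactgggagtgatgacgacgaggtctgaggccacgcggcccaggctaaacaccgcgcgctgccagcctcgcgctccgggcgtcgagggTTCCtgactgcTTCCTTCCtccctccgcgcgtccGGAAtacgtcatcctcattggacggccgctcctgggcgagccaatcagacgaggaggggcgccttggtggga
Jup: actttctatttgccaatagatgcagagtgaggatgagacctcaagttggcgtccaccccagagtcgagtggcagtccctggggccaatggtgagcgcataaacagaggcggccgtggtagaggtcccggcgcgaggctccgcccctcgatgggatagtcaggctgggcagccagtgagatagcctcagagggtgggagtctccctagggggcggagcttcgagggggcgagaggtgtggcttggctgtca

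The core was found 3 times upstream of Ctnnb1, 4 times upstream of Ctnnd1 and 0 times upstream of Jup, counting both strands. Before the other start, the window of Ctnnb1 held 2 matches and that of Ctnnd1 held 7. The windows of Ctnnb1 overlap, so the last TTCC of the printed window, and the CG pairs around it, were counted in both. GGAA is a common string, present in 93.4% of 32851 promoter windows of this length with a median of 3 matches. CACCTG, the E-box letters bound by Snail-type repressors, and CTTTGAT, the TCF/LEF letters, were in none of the 5 windows, and in 17.2% and 3.21% of all windows. The printed windows held 35, 26 and 13 CG pairs for Ctnnb1, Ctnnd1 and Jup, against a median of 6 over all windows. Before the other start there were 43 CG pairs for Ctnnb1 and 3 for Ctnnd1, so that for Ctnnd1 the count lay above or below the median depending on the start. These matches are descriptions of the letters and not of binding.

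Esam encodes an adhesion molecule of endothelial cells and platelets. Its signals under PBS were 9.85, 9.82 and 9.75 at 24 h and 10.24, 10.28 and 10.58 at 3 h, well separated. Esam fell by 0.56 ± 0.11 (SE), to 0.678 of the 3 h level (adjusted p = 0.00326 in limma). Jam3 encodes JAM-C, a junctional adhesion molecule of the immunoglobulin type. It varied most between replicates, with 6.18, 6.60 and 6.27 at 24 h against 7.12, 7.15 and 6.61 at 3 h. The groups met at 6.60 and 6.61, and the difference of -0.60 ± 0.15 (SE) passed (adjusted p = 0.0181 in limma). This call was lost when PBS 3 h replicate 1 was left out (-0.52, adjusted p = 0.0668), and likewise without PBS 3 h replicate 2 (-0.51, adjusted p = 0.0686). Leaving out PBS 24 h replicate 1 (-0.52, adjusted p = 0.0754) or leaving out PBS 24 h replicate 3 (-0.56, adjusted p = 0.0666) also ended it. Fitted on the PBS arrays alone, Jam3 gave an adjusted p of 0.0614. Pecam1 encodes CD31, an adhesion receptor of endothelial contacts that leukocytes and platelets also carry. Its signals of 11.40, 11.21 and 11.20 at 24 h overlapped those of 11.31, 11.45 and 11.51 at 3 h (difference -0.15, 95% interval -0.37 to 0.06, adjusted p = 0.37 in limma).

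Ptprb encodes VE-PTP, the receptor phosphatase that associates with VE-cadherin and with TIE2. It showed the largest difference of the 10, with 11.18, 11.33 and 10.95 at 24 h against 11.82, 11.85 and 11.96 at 3 h under PBS. The groups were apart by more than the spread within either. Ptprb fell by 0.73 ± 0.12 (SE), so that its level dropped by 39.6% (adjusted p = 0.00177 in limma), and passed with any 1 of the 11 arrays left out. In all, 8 of 10 members had every 24 h array below every 3 h array, where 14.7% of all genes and 21.2% of the genes above the median signal did. In 1 member, Cdh2, every 24 h array was above, as in 15.2% of all genes. Without PBS 3 h replicate 1, 5 members were called lower. Over all genes 4529 were then called in either direction, against 5119 with all arrays.

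**Figure D2:**
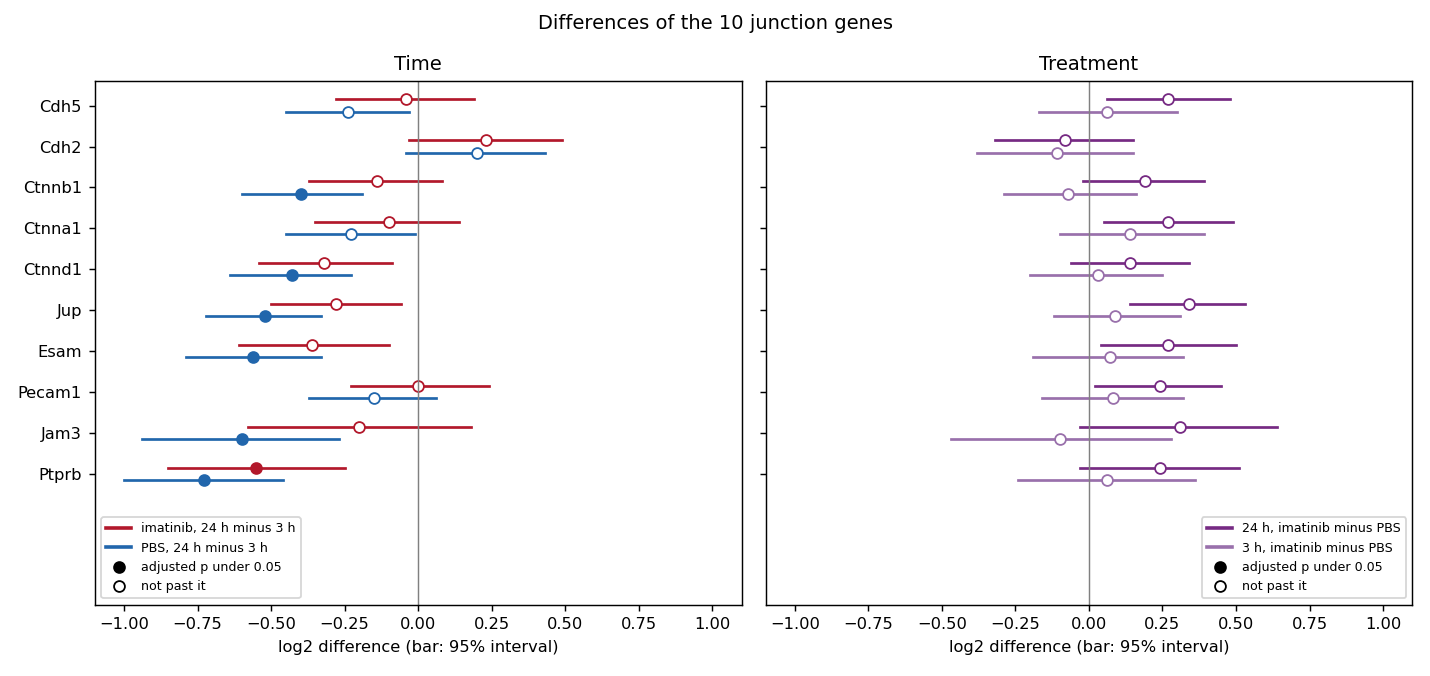
Log2 differences of the 10 junction genes with 95% intervals, 24 h minus 3 h on the left and imatinib minus PBS on the right. Filled points passed an adjusted p of 0.05 in limma, namely Ptprb under imatinib and Ctnnb1, Ctnnd1, Jup, Esam, Jam3 and Ptprb under PBS.

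The same comparison under imatinib asked how the junction genes differed between 24 h and 3 h in treated mice. Ptprb fell here too, and it was the only member called (1 of 10 lower in limma, where 5.32% of all genes were called lower and 7.76% higher). Esam, Ctnnd1 and Jup were lower at 24 h without passing, and Cdh5 and Pecam1 were close to 0. With 2 arrays at 3 h, this comparison was the less precise one.

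Under imatinib Ptprb gave 11.18, 11.53 and 11.47 at 24 h and 11.91 and 11.98 at 3 h. All 24 h arrays were lower, and the log2 difference was -0.55 ± 0.14 (SE, fold 0.683, adjusted p = 0.0217 in limma). The call was lost without imatinib 3 h replicate 1 (-0.58, adjusted p = 0.0842), without imatinib 3 h replicate 2 (-0.51, adjusted p = 0.121) and without imatinib 24 h replicate 1 (-0.44, adjusted p = 0.0726). Esam gave 10.09, 10.03 and 10.11 at 24 h and 10.39 and 10.48 at 3 h under imatinib, without overlap. Its difference of -0.36 (95% interval -0.61 to -0.10) had an adjusted p of 0.0718 in limma, and of 0.0347 without PBS 3 h replicate 3.

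Ctnnd1, with 8.75, 8.64 and 8.65 at 24 h against 9.03 and 8.97 at 3 h under imatinib, differed by -0.32 (adjusted p = 0.0686 in limma). Jup, with 8.0, 7.93 and 8.01 at 24 h against 8.28 and 8.24 at 3 h, differed by -0.28 (adjusted p = 0.0924 in limma). Both genes were lower on every 24 h array. When only genes above the median signal were tested, Ctnnd1, Jup and Esam passed as well (adjusted p = 0.0278, 0.0378 and 0.0327 in limma).

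Ctnnb1 gave 10.08, 10.03 and 10.10 at 24 h and 10.24 and 10.19 at 3 h under imatinib, a difference of -0.14 (adjusted p = 0.457 in limma). Jam3 gave 6.77, 6.61 and 6.61 at 24 h against 6.85 and 6.88 at 3 h, a difference of -0.20 (adjusted p = 0.539 in limma). These 2 genes also did not overlap, which made 6 members with every 24 h array lower, where 22.8% of all genes and 26.7% of those above the median signal were. Cdh5 signals of 11.64, 11.58 and 11.67 at 24 h overlapped those of 11.71 and 11.64 at 3 h (difference -0.04, 95% interval -0.28 to 0.19). Pecam1, with 11.53, 11.43 and 11.57 at 24 h against 11.49 and 11.52 at 3 h, differed by 0.00 (95% interval -0.23 to 0.24). Ctnna1, with 10.01, 9.90 and 10.05 at 24 h against 10.04 and 10.14 at 3 h, differed by -0.10 (95% interval -0.35 to 0.14). In these 3 genes 24 h and 3 h arrays overlapped. Cdh2, with 7.93, 7.81 and 7.82 at 24 h against 7.65 and 7.60 at 3 h, was the 1 member with every 24 h array higher, where 19.4% of all genes were (difference 0.23, adjusted p = 0.272 in limma). Over the 10 members the median was -0.17, against -0.038 over all genes.

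**Figure D3:**
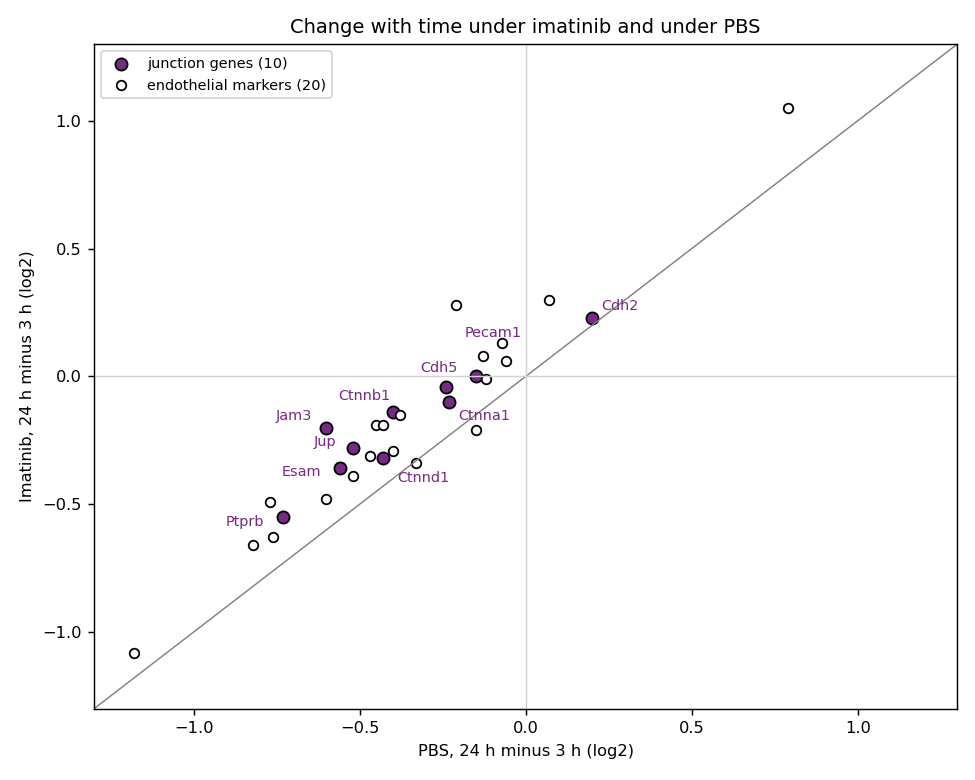
Log2 difference between 24 h and 3 h under PBS (horizontal) and under imatinib (vertical) for the 10 junction genes (filled) and the 20 endothelial markers (open), with the line of equal differences. All 10 junction genes lie above that line, Cdh2 only slightly, and 8 of them lie below 0 on both axes.

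Imatinib against PBS at 24 h was the comparison of treatment after the longer interval. No member passed, and neither did any other gene (0% of 30790 called in limma, smallest adjusted p = 0.205). The signals of 9 of 10 members were nevertheless higher on average under imatinib, by 0.14 to 0.34, and Cdh2 was lower by 0.08. Of all genes 47.1% had a difference above 0, and 53.8% of the genes above the median signal. The members' median was 0.25, against -0.011 over all genes. At an unadjusted p of 0.05, 5 members were higher and 0 lower, where 2.73% of all genes were higher (4.04% of those above the median signal) and 3.37% lower.

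Jup showed the largest difference, with 7.98 ± 0.040 in imatinib 24 h arrays and 7.64 ± 0.062 in PBS 24 h arrays (SD, n = 3 each). The log2 difference of 0.34 (95% interval 0.14 to 0.53, fold 1.26) had an adjusted p of 0.803 in limma. Cdh5 averaged 11.63 ± 0.044 under imatinib and 11.36 ± 0.070 under PBS, a difference of 0.27 (95% interval 0.06 to 0.48, adjusted p = 0.803 in limma). For both genes the spread within a group was smaller than the gap between the groups. Esam averaged 10.08 ± 0.046 under imatinib and 9.81 ± 0.055 under PBS, a difference of 0.27 (adjusted p = 0.815 in limma). Ctnna1 gave means of 9.99 ± 0.076 under imatinib and 9.72 ± 0.11 under PBS (0.27, adjusted p = 0.812 in limma).

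Pecam1 was 11.51 ± 0.073 under imatinib and 11.27 ± 0.11 under PBS, a difference of 0.24 (adjusted p = 0.815 in limma). Jam3 was 6.66 ± 0.090 under imatinib and 6.35 ± 0.22 under PBS (0.31, adjusted p = 0.83 in limma). In Ctnnb1 the means were 10.07 ± 0.037 under imatinib and 9.88 ± 0.11 under PBS (0.19, adjusted p = 0.83 in limma). In these 7 genes every imatinib 24 h array lay above every PBS 24 h array, as in 6.33% of all genes and in 9.57% of the genes above the median signal. Ptprb (0.24, 95% interval -0.03 to 0.51), Ctnnd1 (0.14, -0.06 to 0.34) and Cdh2 (-0.08, -0.32 to 0.15) overlapped between the treatments.

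At 3 h no member separated imatinib from PBS. The differences ran from -0.11 in Cdh2 to 0.14 in Ctnna1, and all 10 genes overlapped between the treatments, where every imatinib array was above in 9.59% of all genes and below in 9.14%. Cdh5 averaged 11.67 ± 0.050 in imatinib 3 h arrays (SD, n = 2) and 11.61 ± 0.14 in PBS 3 h arrays (n = 3), a difference of 0.06 (95% interval -0.17 to 0.30). Jup averaged 8.26 ± 0.023 in imatinib 3 h arrays and 8.17 ± 0.096 in PBS 3 h arrays (0.09, 95% interval -0.12 to 0.31). None of the 30790 genes was called in limma (0%, smallest adjusted p = 0.0564). At an unadjusted p of 0.05, 992 genes were higher (3.22%) and 978 lower (3.18%), and 0 members were among them.

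Whether the imatinib difference was larger at 24 h than at 3 h was tested as an interaction. No member passed in limma, and 0% of all genes did (smallest adjusted p = 0.371). The estimate is the effect of imatinib at the later time less its effect at the earlier one. It was above 0 in all 10 members, as in 48.3% of all genes. The largest estimates were those of Jam3 (0.40, 95% interval -0.10 to 0.91), Ctnnb1 (0.25, -0.05 to 0.56) and Jup (0.24, -0.05 to 0.53), and the smallest that of Cdh2 (0.03, -0.32 to 0.38). The adjusted p-values of the members were 0.915 to 0.991. At an unadjusted p of 0.05, 716 genes were higher (2.33%) and 974 lower (3.16%), and 0 members were among them. The difference between the time courses under imatinib and under PBS was therefore not detectable with these arrays for any member.

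Both the time comparison under PBS and the treatment comparison at 24 h use the PBS 24 h arrays, so their values are given side by side. Jup differed by -0.52 over time and by 0.34 with imatinib at 24 h, Esam by -0.56 and 0.27, Cdh5 by -0.24 and 0.27, and Ptprb by -0.73 and 0.24. The PBS 24 h mean was the lowest of the 4 groups in 9 of 10 members, as in 26.6% of all genes. In 6 members, Cdh5, Ctnnb1, Ctnna1, Jup, Esam and Jam3, all 3 PBS 24 h arrays were below the other 8 arrays, as in 2.53% of all genes.

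The order of the groups differed between members. In Jup and Esam the 3 h groups overlapped at the top, imatinib 24 h followed, and PBS 24 h was lowest, each step without overlap. Ctnnb1 had the same order with the PBS 3 h mean highest. For Cdh5 and Ctnna1 imatinib 3 h, imatinib 24 h and PBS 3 h overlapped, and only PBS 24 h lay apart below them. In Ptprb and Ctnnd1 the 3 h groups overlapped each other and so did the 24 h groups, with every 24 h array below every 3 h array. Jam3 was spread widest in PBS 3 h, where its lowest array reached the imatinib 24 h range. Pecam1 overlapped between all neighbouring groups. Cdh2 alone had both 24 h means above both 3 h means.

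The 20 endothelial markers, a list of genes such as Tie1, Kdr and Cldn5 that holds no member, moved with the junction genes. Their mean signal was 10.26 to 10.38 on imatinib 24 h arrays, 9.93 to 10.16 on PBS 24 h arrays, 10.50 to 10.52 on imatinib 3 h arrays and 10.35 to 10.49 on PBS 3 h arrays. Over time under PBS 10 of 20 were called lower and 1 higher in limma, with a median of -0.39 and a range of -1.18 in Ly6c1 to 0.79 in Ecscr. Without PBS 3 h replicate 1, an alternative chosen after seeing the data, 8 were called lower and 1 higher under PBS. Under imatinib 6 were called lower and 1 higher, with a median of -0.20. For imatinib against PBS at 24 h all 20 were above 0 with a median of 0.24 and a range of 0.10 in Slco1a4 to 0.40 in Eng. None of them was called in limma, and 12 had an unadjusted p under 0.05. In 18 of these 20 markers the PBS 24 h mean was the lowest of the 4 groups, and in 6 all 3 PBS 24 h arrays were below the other 8 arrays.

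Relative to the mean of those 20 markers on the same array, some members still differed over time. Under PBS the log2 difference net of the endothelial mean was -0.38 in Ptprb and -0.21 in Esam, with every 24 h array below every 3 h array. It was 0.20 in Pecam1, 0.12 in Ctnna1 and 0.54 in Cdh2, with every 24 h array above. Cdh5 (0.11), Ctnnb1 (-0.05), Ctnnd1 (-0.08), Jup (-0.17) and Jam3 (-0.26) overlapped. Single markers spread widely around their mean. Under PBS 16 of the 20 markers had a larger log2 difference than Ptprb and 15 than Esam, so some markers fell more than either. In the other direction 7 had a larger difference than Pecam1, 8 than Ctnna1 and 1 than Cdh2. Under imatinib the net difference was -0.37 in Ptprb, -0.18 in Esam and -0.11 in Jup, again without overlap, and 0.14 in Cdh5, 0.18 in Pecam1 and 0.40 in Cdh2 in the other direction. For imatinib against PBS at 24 h the net difference lay between -0.12 and 0.08 in 9 members, all with overlapping arrays. In Cdh2 it was -0.34, with every imatinib array lower. The second Cdh2 probe set, described below, gave 0.31 for the same comparison before the endothelial mean was subtracted. At 3 h the net difference was -0.15 in Ctnnb1, with every imatinib array below every PBS array. In the other 9 members it lay between -0.20 in Cdh2 and 0.05 in Ctnna1, all with overlapping arrays. These net differences are descriptions with no test, and no share over all genes was computed for them.

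Markers of other cells also differed between the groups. The 11 pericyte markers averaged 8.79 to 8.98 on imatinib 24 h, 8.50 to 8.75 on PBS 24 h, 8.91 to 8.96 on imatinib 3 h and 9.05 to 9.58 on PBS 3 h arrays, and 8 of 11 were called lower over time under PBS, with and without PBS 3 h replicate 1. Of 10 astrocyte markers, which averaged 6.78 to 7.01 on imatinib 24 h, 6.62 to 6.92 on PBS 24 h, 6.91 to 7.02 on imatinib 3 h and 6.93 to 7.25 on PBS 3 h arrays, 5 were called lower and 1 higher under PBS (median -0.44). Without PBS 3 h replicate 1, 1 was called lower and 1 higher. Under imatinib 3 astrocyte markers were called lower and 1 higher (median -0.21). Of 9 smooth muscle markers, which averaged 8.10 to 8.27 on imatinib 24 h, 7.72 to 8.64 on PBS 24 h, 8.34 to 8.85 on imatinib 3 h and 8.55 to 9.18 on PBS 3 h arrays, 4 were called lower under PBS (median -0.59), or 2 without PBS 3 h replicate 1, and 1 under imatinib (median -0.50). Of 9 neutrophil markers 4 were called higher under PBS (median 0.60) and 3 under imatinib (median 0.67). The 9 monocyte and macrophage markers averaged 9.03 to 9.35 on imatinib 24 h, 9.28 to 9.92 on PBS 24 h, 6.89 to 6.99 on imatinib 3 h and 6.78 to 7.11 on PBS 3 h arrays, and 8 of 9 were called higher over time under either treatment. The 10 platelet markers, of interest because Esam and Pecam1 are also platelet genes, averaged 6.43 to 6.65 on imatinib 24 h, 6.48 to 7.21 on PBS 24 h, 6.86 to 7.23 on imatinib 3 h and 6.72 to 7.29 on PBS 3 h arrays. Of these, 0 were called over time under PBS in limma (1 at an unadjusted p of 0.05), with a median of -0.29. Under imatinib 1 was called lower (5 at an unadjusted p of 0.05), with a median of -0.52, and in 7 of the 10 every 24 h array was below every 3 h array. The part of these cell types in the junction gene differences was not tested.

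Cdh2 was measured by a pair of probe sets that did not behave alike. Rows of the deposited table run along the chromosomes, and for the other 9 members 19 or 20 of the 20 nearest named rows belong to the chromosome of the gene. The Cdh2 probe set with the highest mean (7.80) has 20 of 20 such rows on chromosome 4, next to Acer2 and Focad, and 0 on chromosome 18, where Cdh2 lies. The second Cdh2 probe set (mean 7.37) has 20 of 20 on chromosome 18. Its signals were 7.59, 7.68 and 7.72 at 24 h under imatinib, 7.53, 7.27 and 7.25 at 24 h under PBS, 7.23 and 7.12 at 3 h under imatinib and 7.27, 7.20 and 7.20 at 3 h under PBS. The imatinib 24 h arrays were the highest of all on this probe set, and the other groups lay lower. Imatinib 24 h was above imatinib 3 h by 0.49 ± 0.11 (SE, fold 1.40, adjusted p = 0.0133 in limma). Against PBS 24 h the difference was 0.31 (95% interval 0.09 to 0.53, adjusted p = 0.801 in limma), the opposite sign to the first probe set. PBS 24 h against PBS 3 h gave 0.13 (adjusted p = 0.474 in limma). The second probe set was examined after the values of the first were known. Unless the second is named, the statements on Cdh2 above rest on the first.

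**Figure D4:**
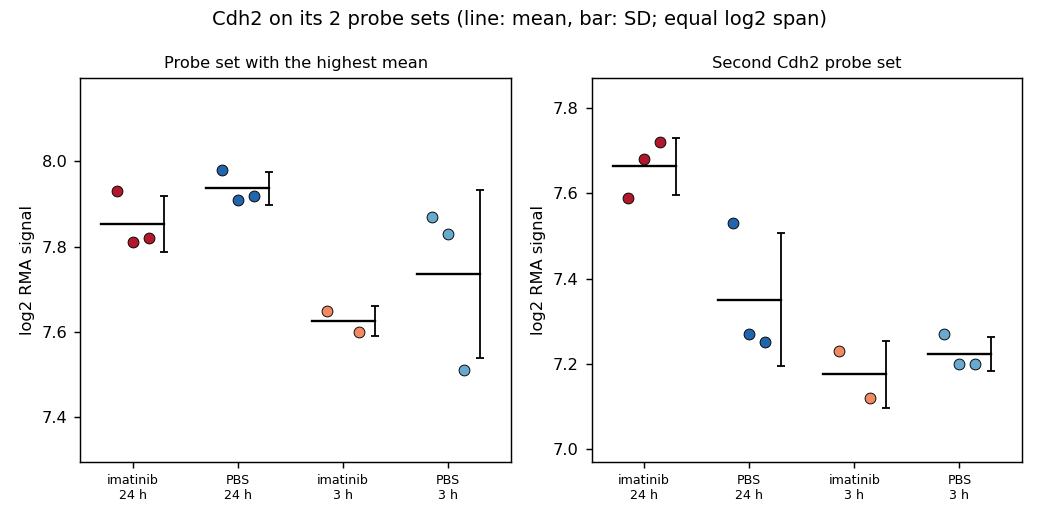
Log2 signal of the pair of Cdh2 probe sets on the 11 arrays, both panels with the same log2 span. Points are arrays, horizontal lines group means and bars the SD. On the first probe set PBS 24 h is highest, and on the second the 3 imatinib 24 h arrays are highest.

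Other genes of the junction pathway were described from 6 lists with 88 measured genes and no member among them. Kdr and Tek are in these lists and also among the endothelial markers. Over time under PBS 25 of 88 were called lower and 4 higher in limma, with a median of -0.22. Without PBS 3 h replicate 1 these counts were 27 and 2. Under imatinib 17 were called lower and 2 higher, with a median of -0.14. These counts stand against the shares over all genes given above for each comparison. Genes were named by rank within each comparison, so a gene named below under a single treatment may have differed under the other too. None of the 88 was called in the interaction in limma.

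Of 17 catenin partners and actin linkers, 3 fell under PBS and 2 under imatinib, and none rose. Vcl, which encodes vinculin, a protein that joins alpha-catenin to actin under tension, fell by 1.17 under PBS (mean 9.43 at 24 h against 10.61 at 3 h, adjusted p = 3.44e-05 in limma) and by 1.02 under imatinib (adjusted p = 0.000278). Pard3, a polarity scaffold, fell by 0.78 under PBS (adjusted p = 0.00212), and Pdlim5, an actin-associated LIM protein, by 0.69 under imatinib (adjusted p = 0.00318). Of 11 other cadherins and nectins, Cdh1, which encodes E-cadherin, rose by 0.48 under PBS (adjusted p = 0.0114) and none fell. Under imatinib none of the 11 passed, Pvrl2, a nectin gene, having the smallest p (0.55, adjusted p = 0.0606) and being the 1 gene under an unadjusted p of 0.05.

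Of 9 immunoglobulin-type partners, Jam2, the gene of the relative JAM-B, fell by 0.70 under PBS (adjusted p = 0.000862 in limma) and by 0.49 under imatinib (adjusted p = 0.0187). Mcam, which encodes the adhesion receptor CD146, rose by 0.71 under imatinib (adjusted p = 0.0103). It was not called under PBS, but its interaction did not pass either (0.36, adjusted p = 0.915 in limma). Among 16 other phosphatases and kinases of the junction, 6 fell and 1 rose under PBS, and 4 fell under imatinib. The Src family kinase gene Yes1 fell by 0.63 under PBS (adjusted p = 0.000738) and by 0.54 under imatinib (adjusted p = 0.00521). The receptor phosphatase genes Ptprg (-0.63 under PBS, adjusted p = 0.000944) and Ptprm (-0.51 under imatinib, adjusted p = 0.00922) were lower, and Ptpn1, which encodes the phosphatase PTP1B, rose under PBS (0.47, adjusted p = 0.00747).

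Of 22 genes of small GTPase and cerebral cavernous malformation (CCM) control, 9 were called lower and 1 higher under PBS, and 6 lower and 1 higher under imatinib. S1pr1, a receptor for sphingosine-1-phosphate that strengthens endothelial contacts, fell by 1.13 under PBS (mean 10.22 at 24 h against 11.34 at 3 h, adjusted p = 4.07e-05 in limma) and fell by 1.01 under imatinib (adjusted p = 0.000281). Rapgef2, an activator of RAP1, fell by 0.85 and by 0.78 (adjusted p = 0.00024 under PBS and 0.00116 under imatinib). Vav2, an activator of RAC1, rose by 0.49 and by 0.79 (adjusted p = 0.0369 under PBS and 0.00694 under imatinib). Its PBS call was lost without PBS 3 h replicate 1 (0.37, adjusted p = 0.128). Of 13 transcription factors known to act on cadherin genes, 6 fell and 1 rose under PBS, and 4 fell under imatinib. Gata2 fell by 0.90 under PBS (adjusted p = 0.00275) and by 0.73 under imatinib (adjusted p = 0.0221). The repressor genes Snai2 and Snai1 differed in opposite directions under PBS, with Snai2 at -0.67 (adjusted p = 0.00457) and Snai1 at 0.46 (adjusted p = 0.0346). Snai2 was lower under imatinib too (-0.55, adjusted p = 0.0296 in limma). The Snai1 call was lost without PBS 3 h replicate 1 (0.47, adjusted p = 0.0697).

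**Figure D5:**
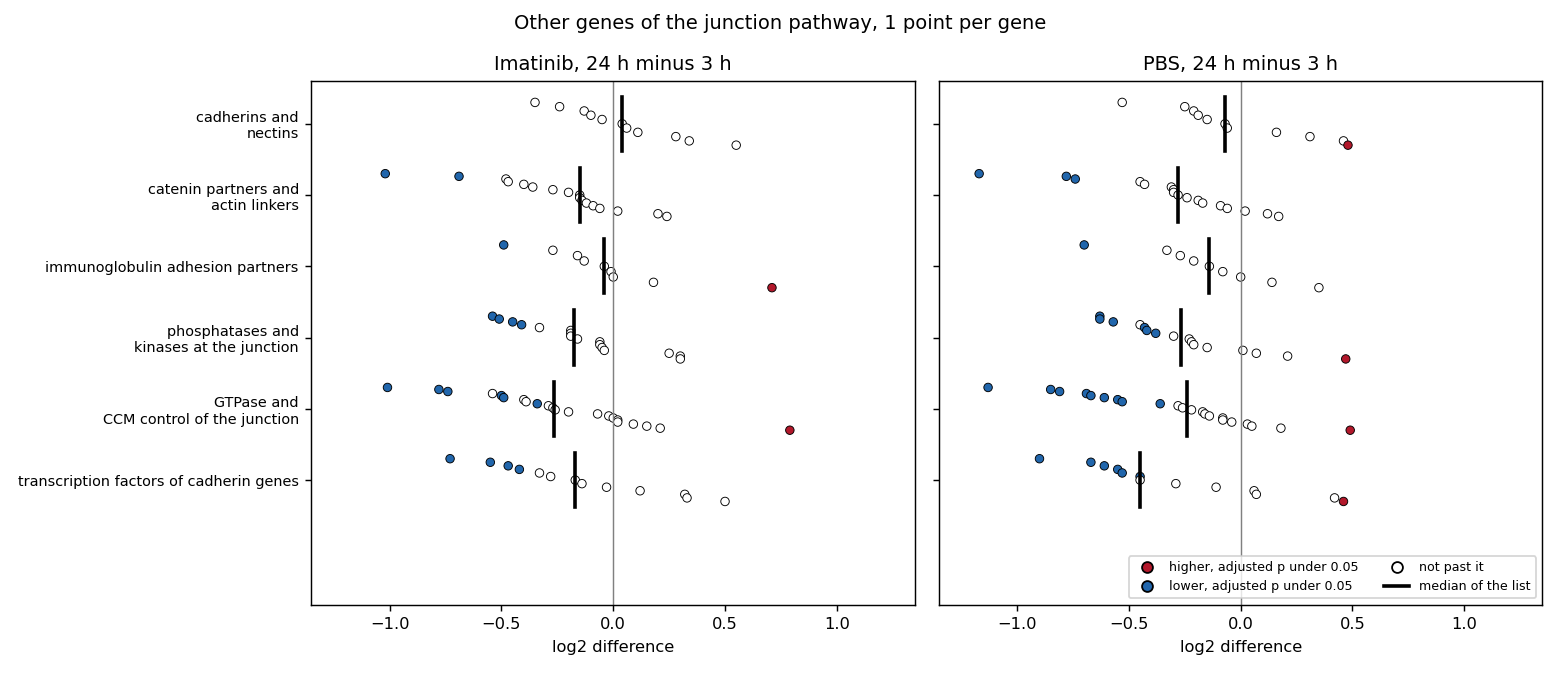
Log2 difference between 24 h and 3 h under imatinib (left) and PBS (right) for 88 other genes of the junction pathway, 1 point per gene in 6 lists. Filled points passed an adjusted p of 0.05 in limma, blue lower and red higher, and black bars are list medians. Under PBS 25 genes are blue and 4 red.

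For imatinib against PBS, none of the 88 pathway genes was called in limma at either time. At 24 h 64 of 88 were above 0, with a median of 0.14, and 13 were higher and 0 lower at an unadjusted p of 0.05. The gene with the smallest p was Cd99l2, which encodes a relative of the adhesion protein CD99 (0.33, adjusted p = 0.803), and Ptprg was at 0.30 (adjusted p = 0.803). The others named by the same rule were Ajuba, a LIM protein of junctions (0.33), Heg1, the membrane receptor of the CCM complex (0.27), Mllt4, the nectin-binding protein afadin (0.24), and Erg, the ETS factor (0.21). At 3 h 55 of 88 were above 0, with a median of 0.04, and 0 were higher and 1 lower at an unadjusted p of 0.05. That one was Cdh11, a mesenchymal cadherin (-0.55, adjusted p = 0.727). In the interaction Cdh11 had the largest named estimate (0.87, adjusted p = 0.867), and 1 gene was higher and 1 lower at an unadjusted p of 0.05.

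The genes whose profile over the 11 arrays was most like that of a member were found by the root mean square (RMS) difference of signals, each gene centred on its own mean, among 12362 candidates. Closest to Cdh5 were Cdc42bpb (RMS 0.057 log2 units), Ano6 (0.062), Wwp1 (0.064), Tmod3 (0.066) and Lima1 (0.066). Cdc42bpb averaged 9.12 in imatinib 24 h, 8.96 in PBS 24 h, 9.30 in imatinib 3 h and 9.16 in PBS 3 h arrays, and like Cdh5 it was lowest in PBS 24 h. Closest to Jup were Cpt1a (0.057), Lats2 (0.059), Arhgef12 (0.059), Kif1c (0.062) and Slu7 (0.063). Closest to the first Cdh2 probe set were Tyrobp, a signalling adaptor of myeloid cells (0.060), Ndufs3 (0.071), Pou2f2 (0.071), Slc39a11 (0.072) and Lrrc45 (0.072).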

How the data were processed

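RNA of 11 samples of brain vascular fragments was measured on arrays, and the files hold log2 signals of 33793 probe sets. Per the submitters' processing notes, the authors made these log2 values with Affymetrix Expression Console and RMA and used limma. No source used here gives the array type, the genome build or any version of these tools. Values of the deposited workbook and series matrix were identical (largest gap 0), and the authors' deposited log2 differences equalled differences of group means (largest gap 8.9e-15). Nothing was normalized again. No depth applies to arrays, and their number limits the precision. Array medians lay between 5.20 and 5.28.

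Left out were 1591 probe sets without a symbol, 128 with several and 14 whose symbol had become a date, and for 730 genes with several probe sets the brightest was kept, which left 30790 genes. Symbols found in a RefSeq table numbered 25411. All 4 groups, taken from the labels, were fitted together in limma 3.58.1 (R 4.3.3) and eBayes, with 7 residual and 4.37 prior degrees of freedom. Benjamini-Hochberg adjustment ran over all 30790 genes, and an adjusted p under 0.05 was called. The 5 comparisons were imatinib against PBS at each time, 24 h against 3 h in each treatment, and their interaction. Alternatives were the mean of a gene's probe sets, a filter on dim genes, only the arrays compared, an intensity trend with a robust prior, median centring, a replicate block, and each array left out in turn. The pipeline was tested on simulated data.

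The 10 members were always named. From each pathway list, over time and for treatment at 24 h, the 2 genes of largest called change in each direction were named. Where a list had no call, the gene of smallest unadjusted p was named. For treatment at 3 h and for the interaction only Cdh11, with the smallest unadjusted p of the 88 genes, was named. The members and lists were chosen with earlier results of these data known. The 6 pathway lists and 12 marker lists held 211 entries, 210 of them measured, and were described by counts and medians. Replicate numbers do not pair the samples (same-numbered deviations correlate at -0.04 to 0.04). Figures were drawn with matplotlib 3.10.9.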

Additional observations from a re-analysis of the deposited data

Results flagged for a closer look

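A signal was found in a probe set that the comparisons above do not use. The second Cdh2 probe set, whose neighbouring rows lie on the chromosome of Cdh2, was higher in imatinib 24 h arrays than in imatinib 3 h arrays by 0.49 on the log2 scale (7.66 ± 0.063 against 7.18 ± 0.078, SD, n = 3 and n = 2, adjusted p = 0.0133 in limma). The probe set with the highest mean gave 0.23 for the same comparison (adjusted p = 0.272 in limma). Under PBS the second probe set differed by 0.13 between the times (7.35 ± 0.15 at 24 h against 7.22 ± 0.037 at 3 h, n = 3 each, adjusted p = 0.474 in limma), and the interaction was 0.36 (95% interval 0.03 to 0.68, adjusted p = 0.901 in limma). Why the probe sets differ was not tested.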

How the results depend on the processing

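The calls over time under PBS kept their direction under every alternative run, and 4 to 6 members were called with 1 array left out (all genes 3886 to 4973, against 5119). The losses were those of Jam3 and Ctnnb1 given above. Cdh5 passed with the intensity trend and robust prior (-0.24, adjusted p = 0.0208 in limma). Over time under imatinib the count of members called, 1, was 4 when only genes above the median signal were tested, 3 with the intensity trend and robust prior, 2 with the mean of probe sets, 2 with the other Cdh2 probe set (chosen after seeing the data), and 0 to 2 with 1 array left out (all genes 2274 to 4233, against 4027). Over time under imatinib, the median signal filter and the intensity trend with robust prior also raised the number of calls over all genes. The mean of probe sets lowered that number slightly. Whether the members gained more calls than genes at large was not tested. The Cdh2 difference between imatinib and PBS at 24 h, -0.08, changed sign in some settings. It was 0.12 with the mean of the Cdh2 probe sets and 0.31 with the other Cdh2 probe set. The Cdh2 interaction of 0.03 ran from -0.03 to 0.15 with 1 array left out. No member was called for imatinib against PBS at either time, or in the interaction, under any alternative run. Over all genes those counts were 0 to 1 at 24 h, 0 to 4 at 3 h and 0 to 2 in the interaction with 1 array left out, and 2 at 3 h with arrays centred on their medians. The replicate block changed no call of a member. It left 6 members called over time under PBS (4844 genes) and 1 under imatinib (3379 genes). Of 845 member values under alternatives, 822 kept direction, judged after rounding, and side of the threshold. Values that rounded to 0 were counted as keeping direction. Among them was Pecam1 over time under imatinib, at 0.00, which ran from -0.03 to 0.05 with 1 array left out. Many of the 822 could hardly change. Several alternatives leave the log2 difference as it is, and the adjusted p-values between treatments and in the interaction began far above the threshold. The cause of the changes was not tested, beyond fewer genes or arrays in some fits.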

Other observations

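Among the cell type lists described beside the junction genes, the pericyte list had the largest median interaction. Its 11 genes include Pdgfrb, Rgs5 and Kcnj8 and mark the cells that wrap brain capillaries. At 24 h against 3 h, 0 of 11 were called under imatinib in limma (1 at an unadjusted p of 0.05, median -0.12), against 8 of 11 called lower under PBS (median -0.67). Imatinib minus PBS had a median of 0.28 at 24 h, with 10 of 11 above 0, and of -0.30 at 3 h, with 0 of 11 above 0. The interaction was above 0 in all 11 genes with a median of 0.56. None passed in limma, and 8 had an unadjusted p under 0.05. The pericyte markers averaged 9.19, 9.58 and 9.05 on the PBS 3 h arrays, with replicate 2 the highest. A list of 6 choroid plexus markers, not described above, had an interaction median of 0.46. It averaged 7.34 to 7.84 on imatinib 24 h, 6.46 to 7.78 on PBS 24 h, 7.17 to 8.48 on imatinib 3 h and 7.48 to 8.13 on PBS 3 h arrays. Choroid plexus RNA thus varied widely between arrays of the same group, and its part in the junction gene differences was not tested. Without PBS 3 h replicate 1 the medians were 0.62 for choroid plexus and 0.56 for pericyte markers.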
